A study of Mus musculus and Homo sapiens with 33 samples.

Results

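Kinesins are motor proteins that use ATP to move along microtubules or to take them apart, and each is built around a heavy chain with a motor domain. Mitotic kinesins assemble the spindle, position chromosomes and drive cytokinesis. Transport kinesins carry vesicles, organelles and other cargo through the cytoplasm. The mitotic motors are known as cell cycle genes whose promoters often carry a cell cycle genes homology region (CHR), the element bound by the MuvB complex. LIN9 is a core subunit of that complex, and the series, by its title, concerns MuvB and YAP in the transcription of mitotic genes.

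Kinesin heavy chain genes were taken as all 41 rows of the count matrix whose symbol is Kif or Kifc, then a number, then at most 1 letter, of 38924 Ensembl genes in all. By known role, 14 were grouped as mitotic, 17 as cargo transport, 6 as kinesins of the cilium and 4 as other. Cenpe, a kinetochore kinesin with another kind of symbol, falls outside this rule and is reported beside it. A filter on low counts left 30 of the 41 for testing, namely 12 mitotic, 14 cargo transport, 2 cilium and 2 other genes.

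The RNA libraries came from KPL cells, a murine lung adenocarcinoma line, as 3 libraries of cells kept in 4-hydroxytamoxifen (4-OHT; the labels write the dose as 10 nm) for 72 hours and 3 control libraries, called EtOH (ethanol) in the labels. The labels state that 4-OHT deletes Lin9, and they give neither the alleles nor the Cre construct of the line. No RNA library of cells given 4-OHT without loss of Lin9 was analysed here, so the drug and the deletion cannot be told apart. The labels do not say whether the 3 libraries of a group came from separate cultures, so the spread behind each p-value may be technical. The fitted spread between libraries beyond counting noise was small (edgeR common coefficient of variation 2.575%).

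The 6 libraries held between 5859826 and 5913942 counted reads. Lin9 was counted at 108, 107 and 101 reads in 4-OHT libraries and at 156, 124 and 159 reads in EtOH libraries (17.8 ± 0.615 and 25.1 ± 3.29 CPM, a gene's read count scaled to library size, mean ± SD, n = 3 each; edgeR log2 fold change -0.49 with SE 0.11, adjusted p = 0.0011). The labels do not say which exons are deleted, so the whole-gene count may include reads from exons that remain. Of 8 lung epithelial markers, Sftpc was at 0 in every library and Sftpb nearly so, while the summed level of the 8, mostly keratins, was 5460 to 5620 CPM in 4-OHT and 5490 to 5560 CPM in EtOH libraries. Of its 6 tested members, Epcam (log2 fold change -0.38) and Cdh1 (-0.14) were called lower (33.3%, against 5.17% of all genes tested). Nkx2-1, with 28, 25 and 31 reads in 4-OHT and 37, 31 and 46 in EtOH libraries, was not called (-0.46, edgeR adjusted p = 0.198). Of the 6 values, 4 lay below 0 and 2 above. The part of these markers in the kinesin values was not tested. The summed levels of 7 fibroblast, 6 immune and 4 endothelial markers stayed at or below 10.1 CPM in every library, and Lum and Cd3e were at 0.

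After 4-OHT, 11 of the 12 mitotic kinesin genes tested were lower and none was higher, whereas 2 of the 14 cargo transport genes, Kif1c and Kifc3, were higher and none was lower. None of the 4 cilium and other genes tested passed in either direction. These calls come from the edgeR quasi-likelihood test with Benjamini-Hochberg adjusted p under 0.05 over all 13355 genes, of which 5.17% were lower and 4.61% higher, or 9.79% in either direction. The median log2 fold change was -0.53 for the mitotic genes and 0.09 for the cargo genes, against 0.0005 for all genes tested. All 12 mitotic values were below 0, and 12 of the 14 cargo values were above it. The 3 4-OHT values lay below the 3 EtOH values without overlap for 11 of the 12 mitotic genes, against 12.2% of all genes. For cargo genes such a gap was seen downward for 1 of 14 and upward for 4 of 14, against 12.1% of all genes upward. In bulk RNA, fewer cells in mitosis and less RNA per cell cannot be told apart.

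**Figure D1:**
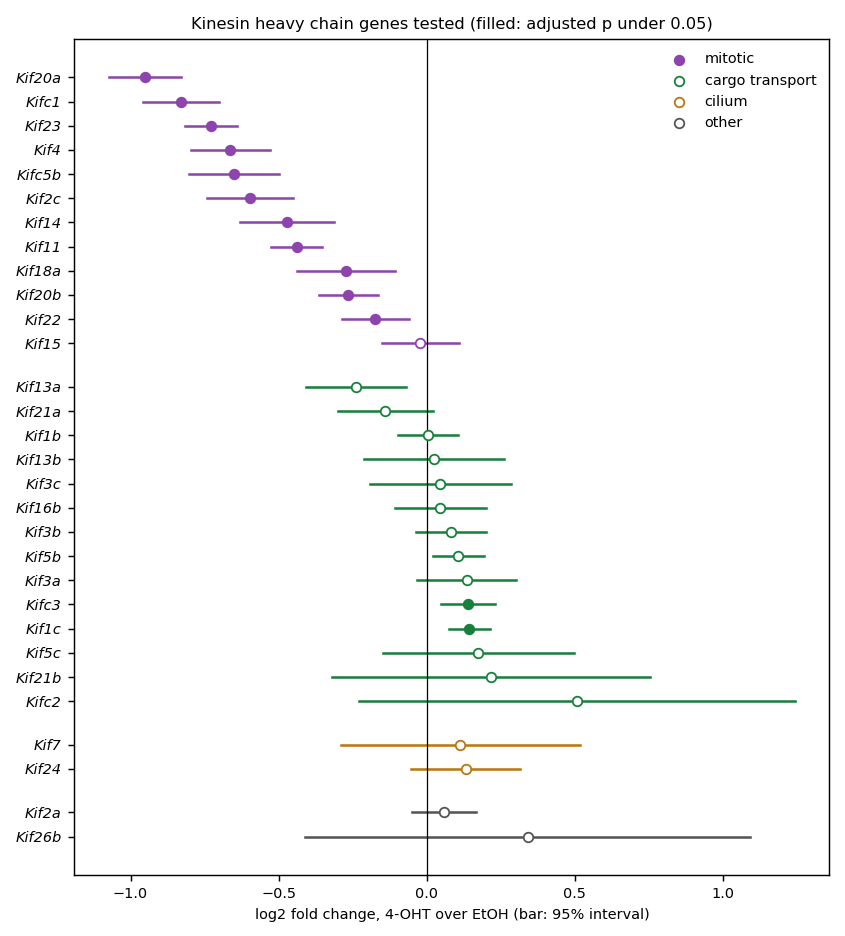
Log2 fold change of 4-OHT over EtOH for the 30 kinesin heavy chain genes tested, with 95% intervals (3 libraries per group). Filled points passed an edgeR adjusted p of 0.05. The 12 mitotic genes all lie below 0, from -0.95 for Kif20a to -0.02 for Kif15. Of the 14 cargo genes, 12 lie above 0 and 2 below.

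Because the mitotic genes moved together, the letters around their start sites were read from RefSeq promoter windows (GRCm38.p6, 250 bases before to 50 after the start). Windows were found for 33 of the 41 genes and 24 of the 30 tested. Kif20a, the mitotic gene with the lowest log2 fold change, and the cargo genes Kifc3, Kif5b, Kif13b, Kif21b and Kifc2 are not in the comparison. The letters searched were the CHR core, TTTGAA or TTCGAA, and CCAAT, on both strands, and a CHR and a CCAAT match can share at most 1 base. A match describes letters and is not evidence of binding. Of the 11 tested mitotic genes with a window, 10 had a CHR match, and of the 10 windows of 9 tested cargo genes, 0 had one. The share was 19.2% among all 32851 windows, 13.8% among windows of genes tested and 26.5% among windows of genes called lower. CCAAT was present in 7 of the 11 mitotic and 4 of the 10 cargo windows. Its share was 37.4% among all windows, 37.7% among windows of genes tested and 45.6% among windows of genes called lower. A CHR match and CCAAT stood together in 7 of the 11 mitotic windows. That share was 7.52% among all windows, 5.76% among windows of genes tested and 17.8% among windows of genes called lower. The 6 windows below are shown for 4 mitotic genes that fell, for the 1 that was not called, and for the cargo gene with the smallest adjusted p. The 4 were not picked by a set rule, and each has both motifs. Of the called mitotic genes not shown, Kif14, Kif22 and Kifc5b have both. Kif2c and Kif20b have a CHR match without CCAAT, and Kif18a has neither. The CHR match starts 228 bases before the start site in Kif14 and 103 bases before it in Kif2c. Capitals mark the CHR and CCAAT letters on either strand.
Kifc1, chr17:33890584-33890883, minus strand: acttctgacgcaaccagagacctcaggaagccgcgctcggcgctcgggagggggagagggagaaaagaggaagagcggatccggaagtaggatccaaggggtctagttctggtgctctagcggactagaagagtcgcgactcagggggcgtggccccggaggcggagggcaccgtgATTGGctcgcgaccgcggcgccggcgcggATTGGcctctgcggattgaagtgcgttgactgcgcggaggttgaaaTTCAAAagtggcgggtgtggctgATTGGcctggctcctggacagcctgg
Kif23, chr9:61946750-61947049, minus strand: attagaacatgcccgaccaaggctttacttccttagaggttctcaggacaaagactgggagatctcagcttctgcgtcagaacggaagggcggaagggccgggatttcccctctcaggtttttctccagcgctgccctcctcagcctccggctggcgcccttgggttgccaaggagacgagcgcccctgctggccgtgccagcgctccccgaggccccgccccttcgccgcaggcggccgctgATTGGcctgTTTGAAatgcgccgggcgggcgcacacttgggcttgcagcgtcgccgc
Kif4, chrX:100625815-100626114, plus strand: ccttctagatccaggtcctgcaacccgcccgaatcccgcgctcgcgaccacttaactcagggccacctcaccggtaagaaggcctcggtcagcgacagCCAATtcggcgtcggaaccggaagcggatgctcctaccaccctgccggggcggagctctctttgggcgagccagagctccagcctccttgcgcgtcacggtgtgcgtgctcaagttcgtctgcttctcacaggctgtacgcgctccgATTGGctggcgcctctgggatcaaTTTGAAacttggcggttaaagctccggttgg
Kif11, chr19:37376132-37376431, plus strand: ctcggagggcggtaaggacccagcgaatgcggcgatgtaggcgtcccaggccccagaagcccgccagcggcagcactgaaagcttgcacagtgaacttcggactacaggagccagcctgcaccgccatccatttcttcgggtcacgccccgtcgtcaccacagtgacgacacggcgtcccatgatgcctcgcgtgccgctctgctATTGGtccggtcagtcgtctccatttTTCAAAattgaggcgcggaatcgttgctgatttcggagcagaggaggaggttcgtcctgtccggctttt
Kif15, chr9:122950831-122951130, plus strand: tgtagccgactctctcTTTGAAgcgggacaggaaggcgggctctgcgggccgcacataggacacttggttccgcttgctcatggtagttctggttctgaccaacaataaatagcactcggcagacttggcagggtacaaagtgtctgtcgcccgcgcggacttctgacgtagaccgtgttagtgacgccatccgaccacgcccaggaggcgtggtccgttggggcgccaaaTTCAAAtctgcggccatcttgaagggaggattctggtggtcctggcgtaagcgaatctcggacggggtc
Kif1c, chr11:70700298-70700597, plus strand: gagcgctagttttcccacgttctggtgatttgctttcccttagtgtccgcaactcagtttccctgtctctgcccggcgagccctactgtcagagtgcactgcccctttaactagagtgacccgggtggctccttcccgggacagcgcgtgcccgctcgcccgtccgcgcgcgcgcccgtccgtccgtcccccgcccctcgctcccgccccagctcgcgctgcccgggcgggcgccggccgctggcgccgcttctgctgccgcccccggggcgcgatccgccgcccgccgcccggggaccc

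In these windows the CHR match starts 19 bases before the start site in Kif11, with CCAAT starting 45 bases before it. In Kifc1 it starts 1 base and in Kif23 2 bases past the first transcribed base, and in Kif4 19 bases past it. Kif15, which was not called lower, also has 2 CHR matches, of which the nearer starts 19 bases before the start site, and no CCAAT. Kif18a was the tested mitotic gene with a window and no CHR match, and it was called lower. Matches were not particular to mitotic genes, since Kif24 and Kif26b, which were not called, have 1 CHR match each. Nor was the pair of motifs, since Kif24 also has 4 CCAAT matches and Kif26b has 1. Among members that were not tested, Kif18b, Kif27 and 1 of the 2 windows of Kif1a have a CHR match. The windows of the mitotic genes Kif2c and Kif14 and of the cargo genes Kif3a and Kif21a lie wholly inside the gene's RefSeq span, so their start may not be the one used in these cells. The same holds for Kif27 and for the window of Kif1a that has the match. Kifc1 and its copy Kifc5b are related in sequence and are not independent examples.

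**Figure D2:**
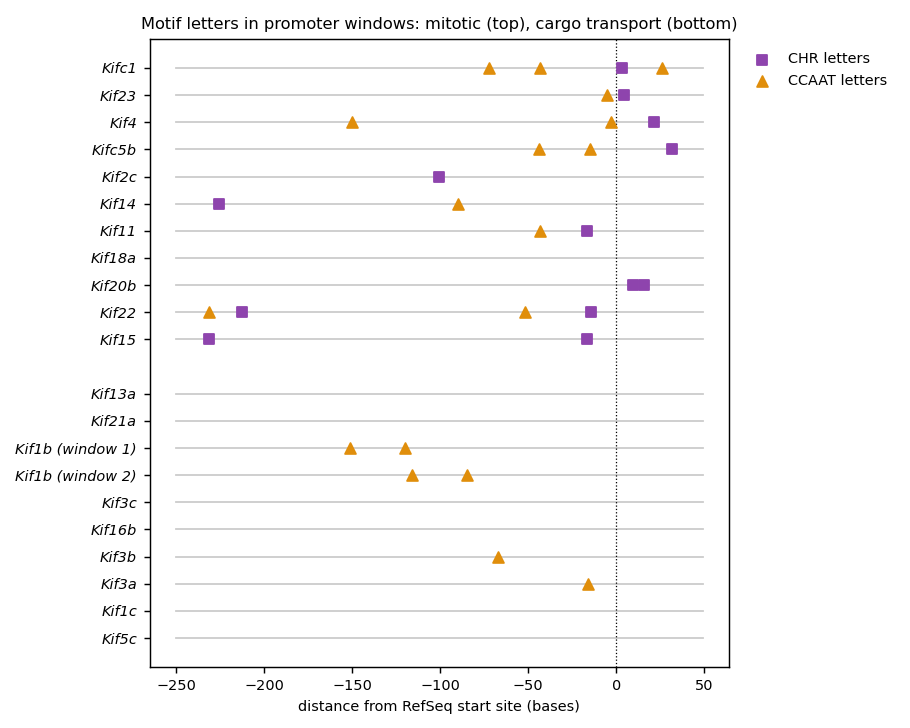
Positions of CHR letters (squares) and CCAAT letters (triangles) relative to the RefSeq start site, in bases, for the promoter windows of tested mitotic (top) and cargo transport genes (bottom), each ordered by log2 fold change. CHR letters occur in 10 of 11 mitotic windows and in 0 of 10 cargo windows, and most lie close to the start site.

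Of the motors of the central spindle and cytokinesis, 5 were tested and all were called lower, against 5.17% of all genes tested. These 5 are part of the 11 lower mitotic genes counted above. Kif20a, which brings the chromosomal passenger complex to the central spindle (chr18:34624624-34633277), was counted at 345, 294 and 325 reads in 4-OHT libraries and at 586, 625 and 630 in EtOH libraries. The groups are far apart, and the level fell by 48.3% (54.4 ± 4.50 CPM in 4-OHT and 105 ± 4.26 CPM in EtOH libraries; edgeR log2 fold change -0.95 with SE 0.06, adjusted p = 1.7e-23). Among all 13355 genes, 48 had a more negative log2 fold change. The RefSeq span of Kif20a shares 4930 bases with Cdc23, so reads of the pair may not be fully separated, and Cdc23 itself was not called (log2 fold change 0.10, adjusted p = 0.548). 

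Kif23 (chr9:61917277-61946810), the kinesin of the centralspindlin complex that bundles microtubules of the midzone, was counted at 750, 737 and 762 reads in 4-OHT libraries and at 1188, 1234 and 1258 in EtOH libraries. Every 4-OHT value was well under every EtOH value, and the level fell by 39.6% (log2 fold change -0.73, SE 0.04, edgeR adjusted p = 3.7e-25). Kif4 (chrX:100626065-100727271), a chromosome-bound kinesin that sets the length of the midzone together with PRC1, stood at 286, 307 and 280 reads in 4-OHT and 461, 486 and 419 reads in EtOH libraries. Its log2 fold change was -0.66 (SE 0.07). Kif14, which recruits citron kinase to the midbody, was counted at 244, 202 and 204 reads in 4-OHT and at 291, 294 and 306 in EtOH libraries (log2 fold change -0.47, SE 0.08). Kif20b, a motor of late cytokinesis and the closest relative of Kif20a, was also called lower, with 690, 717 and 672 reads in 4-OHT libraries against 818, 769 and 881 in EtOH libraries (log2 fold change -0.27, SE 0.05).

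The 95% intervals of Kif20a (-1.07 to -0.83) and Kif20b (-0.36 to -0.17) did not overlap. The ratio of Kif20a to Kif20b reads was 0.500, 0.410 and 0.484 in 4-OHT libraries and 0.716, 0.813 and 0.715 in EtOH libraries. The ratio changed by -0.69 on the log2 scale (two-sided exact permutation p = 0.1, also 0.1 after Benjamini-Hochberg adjustment over 2 ratios). With 3 libraries a group, 0.1 is the smallest p this test can give, and both ratios were picked after their values were seen.

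Among the motors of spindle assembly, Kifc1 (chr17:33875664-33890633), a minus-end-directed kinesin that focuses spindle poles and clusters extra centrosomes, was counted at 301, 288 and 303 reads in 4-OHT libraries and at 554, 528 and 484 in EtOH libraries. The level fell by 43.7% (log2 fold change -0.83, SE 0.06, edgeR adjusted p = 4.8e-19). Its near-identical mouse copy Kifc5b was counted at 199, 220 and 215 reads in 4-OHT and at 328, 329 and 327 in EtOH libraries (log2 fold change -0.65, SE 0.08). How the counting divided reads between the pair is not given, so their separate values are uncertain. Their summed level was 84.8, 85.7 and 87.9 CPM in 4-OHT libraries against 151, 147 and 139 CPM in EtOH libraries, again without overlap. The related pseudogene Kifc5c-ps, with 6, 4 and 6 reads in 4-OHT and 10, 7 and 15 reads in EtOH libraries, was too low to be tested.

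Kif11 (chr19:37376382-37421863), or Eg5, pushes the spindle poles apart. It was counted at 943, 997 and 936 reads in 4-OHT libraries and at 1237, 1260 and 1355 in EtOH libraries, and its level fell by 26.3% (162 ± 5.11 CPM in 4-OHT and 220.1 ± 10.8 CPM in EtOH libraries; log2 fold change -0.44, SE 0.04). Kif15 (chr9:122951081-123018733), which can help to hold the spindle bipolar when Eg5 is inhibited, was the 1 tested gene of the class that was not called. Its reads were 393, 368 and 360 in 4-OHT and 365, 381 and 378 in EtOH libraries, so the groups overlap. The log2 fold change was -0.02 (95% interval -0.15 to 0.11, edgeR adjusted p = 0.905), an interval that spans changes of -9.90% to 7.70%. The ratio of Kif11 to Kif15 reads was 2.40, 2.71 and 2.60 in 4-OHT libraries against 3.39, 3.31 and 3.58 in EtOH libraries, a change of -0.42 on the log2 scale (exact permutation p = 0.1, the smallest possible).

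**Figure D3:**
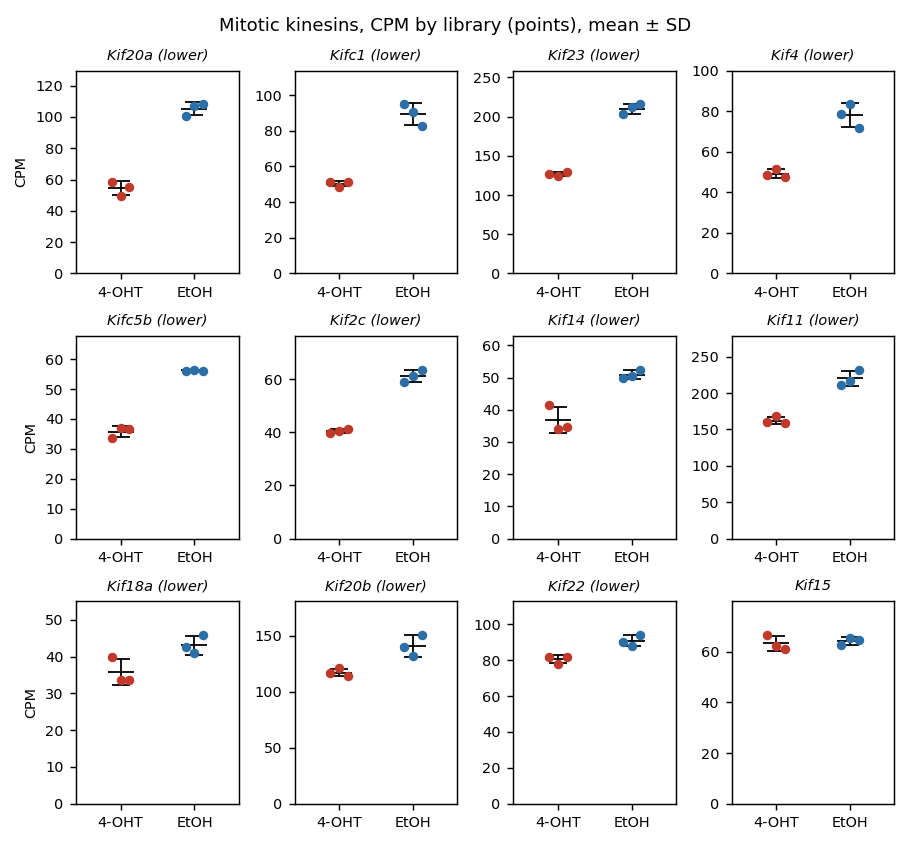
CPM of the 12 tested mitotic kinesin genes in 3 4-OHT (red) and 3 EtOH (blue) libraries, each axis from 0, with mean ± SD in black. Panels run in order of log2 fold change, from -0.95 for Kif20a to -0.02 for Kif15. The groups separate for every gene but Kif15.

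Motors that act on chromosomes and kinetochores fell by different amounts. Kif2c (MCAK), which removes tubulin from microtubule ends at centromeres, was counted at 235, 240 and 243 reads in 4-OHT and at 345, 357 and 371 in EtOH libraries (log2 fold change -0.60, SE 0.07, edgeR adjusted p = 2.3e-10). Kif18a, which dampens chromosome movements at the spindle equator, stood at 235, 199 and 199 reads in 4-OHT and 249, 238 and 268 reads in EtOH libraries, with a narrow gap (log2 fold change -0.27, SE 0.08, edgeR adjusted p = 0.022). Kif22 (Kid), which pushes chromosome arms away from the poles, showed the smallest called fall, with 481, 462 and 482 reads in 4-OHT against 527, 512 and 549 in EtOH libraries (log2 fold change -0.17, SE 0.06, edgeR adjusted p = 0.035). The Kif18a call was lost in DESeq2 (adjusted p = 0.214) and without 4-OHT replicate 2 (0.145) or 3 (0.096) or EtOH replicate 1 (0.063) or 3 (0.158). That of Kif22 was lost in DESeq2 (adjusted p = 0.260), with library totals alone (0.051), and without 4-OHT replicate 1 (0.058) or 2 (0.160) or EtOH replicate 1 (0.093) or 3 (0.179). In the authors' deposited table Kif22 had an FDR of 0.052 and Kif18a one of 0.020.

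Cenpe, the kinetochore kinesin that carries chromosomes to the spindle equator, was counted at 629, 575 and 543 reads in 4-OHT and at 1134, 1058 and 1126 in EtOH libraries. Its log2 fold change of -0.94 (SE 0.05) stood next to that of Kif20a. In order of log2 fold change the intervals of neighbouring mitotic genes overlapped throughout, so the exact order is not resolved. The interval of Kif20a (-1.07 to -0.83) lay wholly below those of Kif2c (-0.74 to -0.45), Kif11 (-0.52 to -0.35), Kif20b (-0.36 to -0.17) and Kif22 (-0.29 to -0.06).

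Kif18b and Kif2b, the other 2 genes of the class, were listed at 0 in all 6 libraries. So were Cdt1, Dctn3, Klc4 and Rhot2, genes used by most cell types, so a 0 in this matrix need not mean that a gene is silent. No fold was computed for them.

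Of the 14 cargo transport genes tested, 12 were not called in either direction. Kif1c (chr11:70700396-70731970), a fast motor that carries secretory and integrin vesicles, was counted at 2437, 2514 and 2529 reads in 4-OHT libraries and at 2171, 2324 and 2194 in EtOH libraries. All 4-OHT values were above all EtOH values, and the level rose by 10.4% (422 ± 8.15 CPM in 4-OHT and 382 ± 14.8 CPM in EtOH libraries; log2 fold change 0.14, SE 0.03, edgeR adjusted p = 0.0019). Without EtOH replicate 1 the adjusted p was 0.053. Kifc3 (chr8:95099828-95202826), a minus-end-directed motor of apical vesicles and cell junctions, stood at 906, 935 and 912 reads in 4-OHT and 802, 828 and 837 reads in EtOH libraries (log2 fold change 0.14, SE 0.05, edgeR adjusted p = 0.033). The Kifc3 call was lost when any 1 of the 6 libraries was left out (adjusted p 0.052 to 0.178), with no low-count filter (0.052) and in DESeq2 (0.261), and the FDR in the authors' deposited table was 0.079.

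Kif5b, the widely expressed conventional kinesin that moves mitochondria and vesicles, had 1117, 1075 and 1123 reads in 4-OHT and 961, 999 and 1081 reads in EtOH libraries. The groups overlapped by 1 EtOH library, and the gene was not called (log2 fold change 0.11, 95% interval 0.02 to 0.19, edgeR adjusted p = 0.120), although it passed without EtOH replicate 3 (0.035). Kif13a, which carries endosomal cargo, pointed the other way, with 202, 184 and 209 reads in 4-OHT and 232, 223 and 239 reads in EtOH libraries. It was not called (log2 fold change -0.24, 95% interval -0.41 to -0.07, edgeR adjusted p = 0.058) and passed without 4-OHT replicate 3 (0.042). 

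The paired motor subunits of heterotrimeric kinesin-2, Kif3a and Kif3b, serve vesicle transport and the building of cilia. Kif3a had 239, 226 and 220 reads in 4-OHT and 206, 203 and 207 reads in EtOH libraries, and Kif3b had 469, 478 and 462 reads in 4-OHT against 430, 445 and 439 in EtOH libraries. Neither pair of groups overlapped, yet neither gene was called (log2 fold changes 0.14 and 0.08, edgeR adjusted p = 0.372 and 0.461). Kif3c, the alternative partner of Kif3a, stood at 0.05. The remaining tested cargo genes, none of them called and all with overlapping groups, had log2 fold changes of -0.14 for Kif21a, 0.0044 for Kif1b, 0.03 for Kif13b, 0.05 for Kif16b, 0.17 for Kif5c, 0.22 for Kif21b and 0.51 for Kifc2. The last rested on few reads, 12, 11 and 16 in 4-OHT and 5, 11 and 11 in EtOH libraries, and its 95% interval ran from -0.23 to 1.24. Kif1a, Kif5a and Kif17, known mainly from neurons, had at most 10 reads in any library and were not tested.

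**Figure D4:**
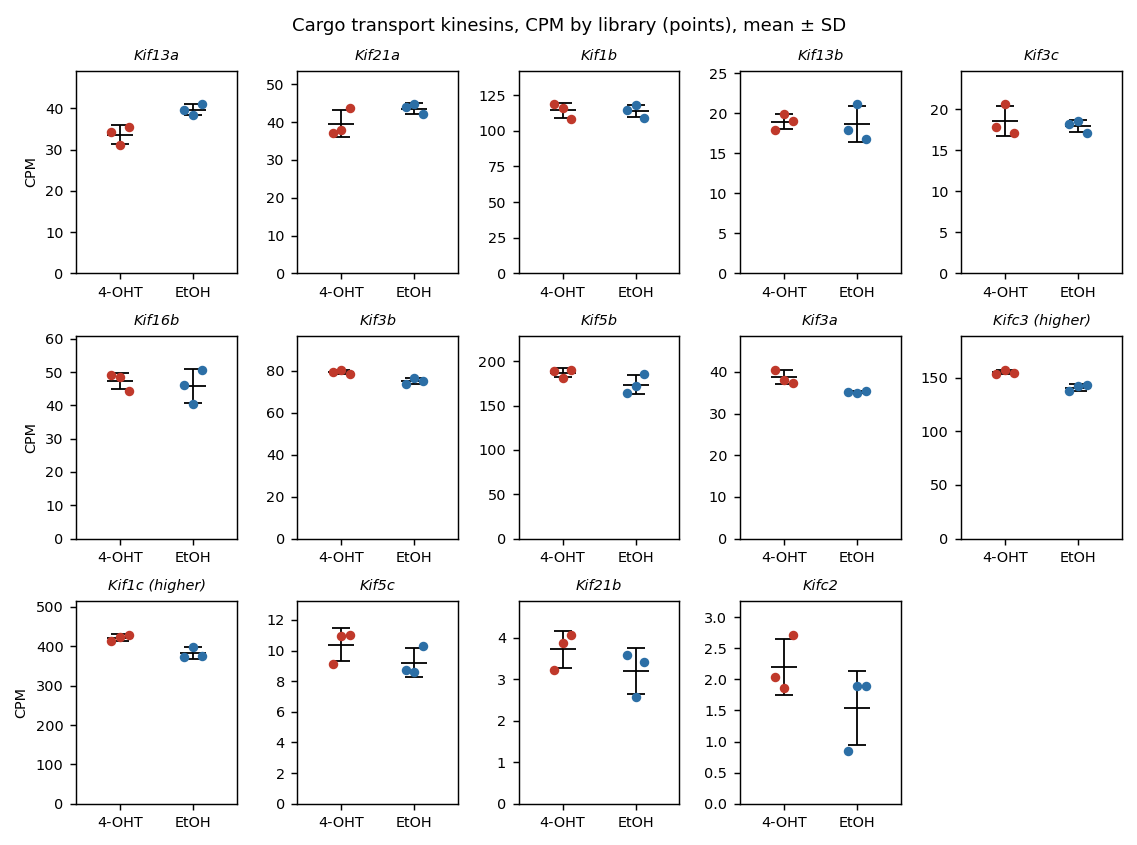
CPM of the 14 tested cargo transport kinesin genes in 3 4-OHT (red) and 3 EtOH (blue) libraries, each axis from 0, with mean ± SD in black. Kif1c and Kifc3 were called higher, by 10.4% and 10.2%, and most other genes overlap between the groups.

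Of the kinesins of the cilium, Kif24, a microtubule-depolymerising motor of centrioles, had 184, 207 and 189 reads in 4-OHT and 188, 168 and 167 reads in EtOH libraries (log2 fold change 0.13, edgeR adjusted p = 0.452). Kif7, a regulator of Hedgehog signalling at the ciliary tip, had 49, 50 and 27 reads in 4-OHT and 37, 32 and 46 in EtOH libraries (log2 fold change 0.11, adjusted p = 0.825). Both overlapped between groups. Kif6, Kif9, Kif19a and Kif27, known from motile or other cilia, had at most 7 reads in any library and were not tested. Kif2a, a relative of Kif2c that acts both at spindle poles and in interphase cells, was not called (679, 618 and 606 reads in 4-OHT and 611, 557 and 638 reads in EtOH libraries; log2 fold change 0.06, 95% interval -0.05 to 0.17). Kif26b was not called at 0.34 (SE 0.38), Kif26a had at most 1 read in any library and Kif12 was listed at 0.

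The makeup of kinesin RNA shifted. Mitotic genes held 39.46%, 38.99% and 39.0% of all kinesin heavy chain reads in 4-OHT libraries and 49.28%, 48.95% and 49.57% in EtOH libraries. Cargo genes held 53.28%, 53.98% and 54.37% in 4-OHT libraries and 44.65%, 45.6% and 44.43% in EtOH libraries. The classes divide up the same total, so a lower mitotic share raises the other shares. In reads, cargo genes held 6889, 6964 and 6944 in 4-OHT libraries and 6297, 6533 and 6476 in EtOH libraries. There were thus 0.727 ± 0.0123 mitotic reads per cargo read in 4-OHT and 1.098 ± 0.0222 in EtOH libraries (mean ± SD, n = 3 each), with no overlap. Reads were not divided by transcript length, so these shares describe reads and not molecules. Kinesin heavy chains as a whole took 0.218 ± 0.00156% of library reads in 4-OHT and 0.244 ± 0.00432% in EtOH libraries.

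**Figure D5:**
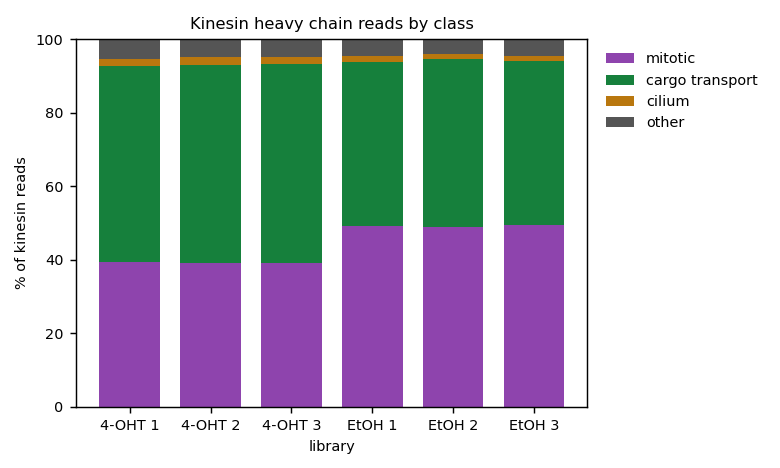
Share of kinesin heavy chain reads by class (percent of all kinesin reads) in each of the 3 4-OHT and 3 EtOH libraries. The mitotic share is 38.99% to 39.46% in 4-OHT and 48.95% to 49.57% in EtOH libraries.

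Among 8 partners of mitotic kinesins, 5 were lower and none was higher, against 5.17% lower and 4.61% higher of all genes. Prc1, the midzone bundler that works with Kif4, had 495, 474 and 507 reads in 4-OHT and 902, 931 and 970 in EtOH libraries (log2 fold change -0.94, SE 0.05). Tpx2, which targets Kif11 and Kif15 to the spindle, had 780, 750 and 806 reads in 4-OHT and 1279, 1232 and 1233 in EtOH libraries (log2 fold change -0.70, SE 0.04). Racgap1 (-0.50), the partner of Kif23 in centralspindlin, Gtse1 (-0.47), an inhibitor of Kif2c, and Cit (-0.28), the citron kinase that Kif14 recruits, were also lower; Cit did not pass in DESeq2 (adjusted p = 0.067). The 3 that were not called were the end-binding protein genes Mapre1, Mapre2 and Mapre3 (log2 fold changes -0.03, 0.09 and 0.03), which serve microtubule ends throughout the cell cycle.

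Accessory genes of cargo transport were called in both directions. None of 4 tested light and associated chain genes was called, and Klc1, a light chain of conventional kinesin, stood at 0.0062 on the log2 scale. Of 11 tested cargo adaptor genes, 2 (18.2%) were higher and 1 (9.09%) was lower, against 4.61% and 5.17% of all genes. Trak2, the mitochondrial adaptor of kinesin-1, had 571, 548 and 539 reads in 4-OHT and 438, 444 and 391 in EtOH libraries (log2 fold change 0.36, SE 0.06, edgeR adjusted p = 1.6e-06). Arl8a, a small GTPase gene of lysosome transport, changed by 0.27 (adjusted p = 0.0022), a call lost without 4-OHT replicate 2 (0.084) and in DESeq2 (0.070). Mapk8ip3, a scaffold for kinesin-1 cargo named after its value was seen, was the lower gene (-0.20), a call lost without 4-OHT replicate 1 (adjusted p = 0.095) or EtOH replicate 3 (0.138) and in DESeq2 (0.184). Of 21 tested genes of dynein and dynactin, the opposite motor, 3 (14.3%) were higher and 2 (9.52%) lower, against 4.61% higher and 5.17% lower of all genes. Nde1, a dynein regulator that also acts in mitosis, changed by -0.36 (adjusted p = 1.8e-07). Dynll2, a dynein light chain gene, changed by 0.18 (adjusted p = 0.0066), a call lost without 4-OHT replicate 3 (0.122) and in DESeq2 (0.120). The other called genes, named after their values were seen, were Dync1i1 (-1.05), Dync1li2 (0.15) and Ndel1 (0.20), and each was lost in DESeq2 (adjusted p = 0.120, 0.176 and 0.265) and without some single library: 4-OHT replicate 2 (0.070) or EtOH replicate 1 (0.056) for Dync1i1, EtOH replicate 1 (0.064) or 2 (0.070) for Dync1li2, and 4-OHT replicate 2 (0.168), EtOH replicate 1 (0.207) or 2 (0.080) for Ndel1.

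Genes of G1/S and replication were measured beside the motors as a reading of an earlier part of the cell cycle. Of 13 tested, 8 (61.5%) were lower and none was higher, against 5.17% lower and 4.61% higher of all genes. Their median log2 fold change was -0.18, against -0.53 for the mitotic kinesins and 0.0005 for all genes tested. In DESeq2, 4 of the 13 were lower and none was higher, where 362 of all 13355 genes were lower and 208 higher. The smallest p-values were those of Mcm6 (-0.28) and Mcm5 (-0.27), both subunits of the replicative helicase. Their part in the kinesin values was not tested.

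The authors' deposited table lists 37 of the 41 members. At an FDR under 0.05, 10 of them were lower and 1 higher, against 681 lower and 567 higher of its 17483 genes. The only members whose calls differed from those above were Kif22 and Kifc3, which did not pass there.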

How the data were processed

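The series holds 33 samples, of which the 6 KPL RNA libraries were used and 27 ChIP-seq samples were not analysed here. The deposited matrix gives raw counts, whole numbers of reads for each Ensembl gene. The authors' table, as deposited, holds log2 values (fold change and mean CPM) and a p-value and FDR per gene, per the file headers. The submitters' processing notes name TopHat2 2.1.0, Bowtie 1.1.2, Bowtie2, bedtools 2.26.0 and edgeR without roles, with the builds mm10, GRCm38.p6, GRCh37 and hg19. The counting program and strand setting are not given in the sources here, so overlapping genes may share reads. Per the labels' protocols, an NEBNext Ultra RNA kit was used.

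Of 38951 lines, 27 repeats were dropped. Counts were fitted in edgeR 4.0.16 (R 4.3.3) with filterByExpr (minimum count 10, total 15), which left 13355 genes with 99.7% of the reads, TMM scaling, and the robust quasi-likelihood test (two-sided, no block, Benjamini-Hochberg over all genes). SE is the size of the log2 fold change divided by the square root of the F statistic. The procedure was also run on simulated counts with a fixed spread and with changes placed only in genes of moderate or high count. That run does not cover members with few reads or the question of whether libraries came from separate cultures. No library repeated another: chi-square over degrees of freedom was 1.26 to 1.48 for pairs of a group. Members and lists were chosen with earlier results of these data known, so classes are described by counts and medians, without a test. All tested mitotic and cargo members are named, other members when called or for completeness, and from each further list the 2 genes with the smallest p among those called, or the one with the highest mean CPM. Other genes, such as the remaining kinesin partners, were named after their values were seen. Coordinates and promoters are from RefSeq, GRCm38.p6, in which all 41 symbols matched. Alternatives were other scalings (RLE, library totals alone), filters (none, or CPM of at least 1 in 3 libraries), DESeq2 1.42.0, limma-voom (limma 3.58.1), a replicate block and leaving out each library.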

Additional observations from a re-analysis of the deposited data

How the results depend on the processing

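The 11 mitotic calls stood with RLE scaling, with either other filter, in limma-voom and with the replicate block; 10 stood with library totals alone, 9 in DESeq2, and 9 to 11 when 1 library was left out. Kif2a and Cenpe added to the class gave 12 lower. Higher kinesins, all of them cargo genes, numbered 1 rather than 2 with no low-count filter and in DESeq2, and 0 to 2 without 1 library, and lower cargo genes 0 to 1. Without 1 library the median log2 fold change lay between -0.58 and -0.51 for mitotic and between 0.0691 and 0.13 for cargo genes, and 508 to 643 genes were lower and 403 to 542 higher (403 without EtOH replicate 1). DESeq2 called 362 lower and 208 higher, where edgeR called 691 and 616. Among the other lists, DESeq2 called 4 G1/S genes lower rather than 8, 1 cargo adaptor higher and none lower, and 1 dynein or dynactin gene lower and none higher. The mitotic share of kinesin reads differed by -10.1 percentage points (4-OHT minus EtOH), by -9.42 with Kifc1 and Kifc5b left out, and by -10.3 to -9.96 without 1 library. The cause of these shifts was not tested.

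Uncalled genes near 0 changed sign without 1 library: Kif3c ranged from -0.0376 to 0.0949, Kif15 from -0.06 to 0.0005, Kif16b from -0.0355 to 0.13, Kif7 from -0.027 to 0.35, Kif13b from -0.0431 to 0.13, Kif1b from -0.0244 to 0.0398, Klc1 from -0.0372 to 0.0656 and Mapre3 from -0.049 to 0.1163. Replicate numbers are shared between groups. Same-numbered libraries did not visibly deviate together (correlations 0.036, 0.032 and -0.062). Libraries of a group differed little beyond counting noise (chi-square over degrees of freedom 1.26 to 1.48), so this check cannot exclude a pairing. With the replicate block 11 kinesins were lower and 2 higher, and 665 genes were lower and 579 higher. Genes with few reads, such as Kifc2 and Kif26b, have intervals too wide to show a change of moderate size at this depth.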
